A study of Mus musculus with 12 samples.

Results

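MeVa2.1.dOVA, the melanoma line that the study's title calls immune-refractory, was compared with 3 other mouse melanoma lines, MeVa2.1, MeVa2.2 and MeVa2.2.dOVA. The members described here are the genes whose expression in all 3 MeVa2.1.dOVA libraries lay above, or below, all 9 libraries of the other lines. There were 428 such genes, 169 above (1.21%) and 259 below (1.85%), among 13985 genes with enough reads to test. Before the filter on low counts there were 524. The filter removed 68 of those above, whose mean in the line reached at most 0.947 CPM, and 28 of those below. CPM stands for reads counted per gene, scaled to a common library size and corrected for library composition by edgeR's TMM factors.

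RNA sequencing was done on untreated cells, with 3 libraries per line and 12 in all. The labels describe every line as a wild-type murine melanoma cell line from a subcutaneous skin tumour, and the line names alone tell the groups apart. They leave dOVA unexplained. Nor do they tell whether the libraries of a line were grown apart, so the p-values speak of the spread among these libraries alone. With 1 refractory line in the series, immune refractoriness and the identity of the line cannot be told apart. Total gene counts ranged from 16181816 to 35627069 per library. Replicate 2 of MeVa2.1.dOVA stood apart from replicates 1 and 3 on the second principal component, at -87.75 against -13.75 and -25.17, and replicate 2 of MeVa2.2 also stood apart from its line. Replicates 1 and 3 correlated more closely with replicate 3 of MeVa2.1 (r = 0.973 and 0.979) than with their own line's least similar library (0.956 and 0.958).

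The melanoma label was checked against pigment cell markers. Pax3, a neural crest and melanoblast factor, was present at 21.6 to 40.6 CPM over the 12 libraries, and Mitf, the master regulator of melanocytes, at 9.12 to 24.4 CPM. The pigment genes Tyr, Dct, Tyrp1 and Pmel reached at most 0.673 CPM in any MeVa2.1.dOVA library, while Dct, Tyrp1 and Pmel were at 15.6, 12.1 and 6.27 CPM in replicate 1 of MeVa2.2. Another 8 of the 16 listed melanocyte genes, Sox10 and Mlana among them, had too few reads to test. None of the 8 tested melanocyte genes was called different from the mean of the other lines or lay outside their range. Against MeVa2.2 singly 1 was called lower and 0 higher, beside 2.27% and 1.7% of all genes. Markers of immune cells were summed at 1.66 to 7.4 CPM in MeVa2.1.dOVA and 1.92 to 11.7 CPM in the other lines, with Cd3e, Cd4, Cd8a and Ncr1 at 0 in every line.

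Tumour cells can meet T cells and cytokines with several layers of machinery. Class I MHC molecules show peptides to CD8 T cells, interferons raise that display through STAT and IRF factors, and checkpoint ligands dampen the T cell. Cytokine receptors of the interleukin-6 family (Osmr, Lifr, Il11ra1) signal through STAT proteins, those of the interleukin-1 family (Il1r1, Il1rl1) through NF-kB, and chemokines such as Cxcl12 and Cx3cl1 direct the movement of leukocytes. Melanoma cells also vary in how far they express developmental and mesenchymal genes in place of pigment genes.

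The sequences just upstream of 6 members are shown because these genes were among those farthest from the other lines and have a RefSeq start whose 150 upstream bases overlap no annotated exon. They are the first 3 genes in each direction, by width of gap, that met this. Each is from RefSeq on GRCm38.p6, 5′ to 3′ in the sense of the gene, ending at the base before the start, with every CG dinucleotide in capitals. Sucnr1 is at chr3:60081719-60081868 (plus strand), Fam124a at chr14:62555587-62555736 (plus), Il1rl1 at chr1:40429420-40429569 (plus), Slc25a13 at chr6:6217174-6217323 (minus), Egln3 at chr12:54203875-54204024 (minus) and Cxcl12 at chr6:117168385-117168534 (plus).
Sucnr1: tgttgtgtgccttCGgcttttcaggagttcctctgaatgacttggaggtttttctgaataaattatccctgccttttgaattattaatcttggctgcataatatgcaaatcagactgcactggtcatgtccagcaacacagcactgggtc
Fam124a: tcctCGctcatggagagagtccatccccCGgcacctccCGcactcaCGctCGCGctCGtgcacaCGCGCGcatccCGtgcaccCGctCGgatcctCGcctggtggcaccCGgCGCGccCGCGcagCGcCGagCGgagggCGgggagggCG
Il1rl1: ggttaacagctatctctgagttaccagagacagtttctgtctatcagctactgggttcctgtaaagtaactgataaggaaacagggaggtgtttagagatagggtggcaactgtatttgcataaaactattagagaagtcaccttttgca
Slc25a13: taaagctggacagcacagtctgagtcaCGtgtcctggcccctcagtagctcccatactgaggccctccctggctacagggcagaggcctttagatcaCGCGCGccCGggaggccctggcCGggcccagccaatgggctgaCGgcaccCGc
Egln3: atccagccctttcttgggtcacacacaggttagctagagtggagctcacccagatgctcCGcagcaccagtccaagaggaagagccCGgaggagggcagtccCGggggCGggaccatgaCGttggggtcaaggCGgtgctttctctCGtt
Cxcl12: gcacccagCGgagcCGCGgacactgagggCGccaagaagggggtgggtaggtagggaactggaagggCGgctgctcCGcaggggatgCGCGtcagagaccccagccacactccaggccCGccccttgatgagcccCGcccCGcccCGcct

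CG dinucleotides numbered 1 in the Sucnr1 window, 24 in Fam124a, 0 in Il1rl1, 8 in Slc25a13, 7 in Egln3 and 12 in Cxcl12. The lowest and highest counts were thus in genes above, and the windows of genes below lay between. Such a window was matched for 125 of the 169 genes above and 188 of the 259 below, out of 9967 tested genes. The median was 10 CG for genes above, 9 for genes below and 11 for all tested genes. Letters of the AP-1 site TGACTCA, read on both strands, were in 1.6% of the windows of genes above, 4.79% of those of genes below and 1.94% of all. Among the 6 printed windows they were in Slc25a13 alone. The core of the interferon-stimulated response element (GAAA, any 2 bases, GAAA), on both strands, was in 1.6%, 2.13% and 1.37% respectively, and TATAAA in 6.4%, 3.19% and 3.2%. None of the 6 windows held either of these. The files count reads per gene, so they do not tell which start was used.

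The 428 members were 3.06% of the genes tested. By the same rule, 894 genes (6.39%) set MeVa2.1 apart from the rest, 216 (1.54%) set MeVa2.2 apart and 1131 (8.09%) set MeVa2.2.dOVA apart, so MeVa2.1.dOVA had fewer than MeVa2.1 and MeVa2.2.dOVA and more than MeVa2.2. That order turned without MeVa2.2 replicate 2, when MeVa2.2 had 851 such genes and MeVa2.1.dOVA 187 above and 281 below, and without both libraries that stood apart (945, against 353 and 456). In the first case MeVa2.2 was left with fewer libraries than MeVa2.1.dOVA, and losing a library of its own raises a line's count. Without its own replicate 2, MeVa2.1.dOVA had 331 above and 429 below. Its genes divided unevenly, with 259 below against 169 above. The gap to the nearest other library was at least 2-fold for 26 of the genes below and 10 of those above (log2 CPM with a prior count of 2). For most members MeVa2.1 was the nearest line, for 109 of 169 above and 170 of 259 below. The rule admits very small gaps. The narrowest inside it were Rab32 above, at 27.46 against 27.43 CPM, and Vwa8 below, at 54.88 against 54.93 CPM. Just outside were Lonp2, at 87.40 against 87.43 CPM, and Stk16, at 35.90 against 35.86 CPM.

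**Figure D1:**
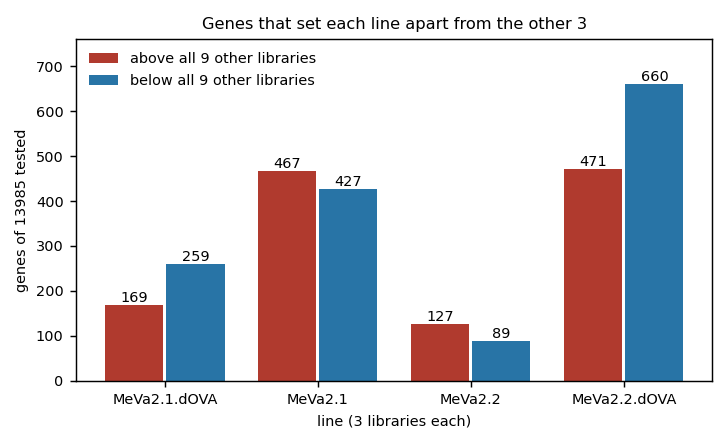
Number of genes, of 13985 tested, that lay above (red) or below (blue) all 9 libraries of the other lines, for each line. MeVa2.1.dOVA had 169 above and 259 below, fewer than MeVa2.1 and MeVa2.2.dOVA and more than MeVa2.2. When MeVa2.2 replicate 2 was left out, MeVa2.2 had more than MeVa2.1.dOVA, a comparison of unlike numbers of libraries.

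A test of the line against the mean of the 3 others, with edgeR's quasi-likelihood test and Benjamini-Hochberg adjustment over all genes, called 513 genes at an adjusted p of 0.05 (3.67% of those tested), 293 higher (2.1%) and 220 lower (1.57%). A fit that treated the 9 other libraries as 1 group called 13 (5 higher, 8 lower). The separation of the libraries and the fold change come from the same data and are not independent of each other. Of the 513, 174 were members (51 above, 123 below), which is 40.7% of the members. The other 339 called genes overlapped the other lines. In 261 of these both MeVa2.1 lines lay on the same side of both MeVa2.2 lines, 190 above and 71 below. Mtap, the methionine salvage enzyme encoded next to Cdkn2a, is such a gene, with 0.122, 0.296 and 0.344 CPM in MeVa2.1.dOVA, 0.164 to 0.437 in MeVa2.1 and 503 to 952 in the 6 MeVa2.2 and MeVa2.2.dOVA libraries. The neural crest factors Tfap2b and Foxd3, called higher, likewise overlapped MeVa2.1. Tfap2b was at 59.9 to 123 CPM in MeVa2.1.dOVA, 52.0 to 168 in MeVa2.1 and at most 1.98 in the rest.

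The median log2 difference from the mean of the other lines was 0.59 for the genes above and -1.39 for those below, beside 0.01 over all tested genes. These medians follow from the rule and are a description. Against MeVa2.1, MeVa2.2 and MeVa2.2.dOVA singly, which share the MeVa2.1.dOVA libraries, the medians were 0.43, 0.65 and 0.76 for genes above and -1.01, -1.41 and -1.52 for genes below. The pairwise tests called 7, 39 and 73 of the 169, and 29, 114 and 157 of the 259. Over all genes they called 0.486%, 3.97% and 11.3% in either direction, of which 0.1%, 1.7% and 6.45% were higher and 0.386%, 2.27% and 4.81% lower. The comparison with MeVa2.1 was the least firm. Its 68 calls became 364 when the replicate number was fitted as a block, and 1 when a single library was left out, either replicate 1 or 2 of MeVa2.1, or replicate 2 or 3 of its dOVA counterpart. They numbered 9 without MeVa2.1.dOVA replicate 1, 32 and 43 without replicates 1 and 2 of MeVa2.2.dOVA, and 40 without MeVa2.2 replicate 1. With the block, 1108 genes were called against the mean of the others, among them 87 of the genes above and 176 of those below. Without MeVa2.1.dOVA replicate 1 or 3 the 513 calls fell to 244 or 250.

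The genes farthest above the other lines included a developmental transcription factor, a nuclear receptor and receptors for a metabolite and a cytokine. Pou3f1 (also Oct6), a POU-domain factor of neural and Schwann cell development, was at 17.6, 14.7 and 22.6 CPM in MeVa2.1.dOVA and at 1.47, 2.90 and 1.43 CPM in MeVa2.1. It was at 0.162 CPM or less in the 6 libraries of the MeVa2.2 lines, and no library of the line came near the others. The log2 difference was 6.37 ± 0.42 (SE, adjusted p = 8.98e-06). Thrb, the thyroid hormone receptor beta, was at 11.9, 11.6 and 10.5 CPM against 3.88 to 5.22 in MeVa2.1 and at most 0.332 in the MeVa2.2 lines. The log2 difference for Thrb was 4.40 ± 0.27 (adjusted p = 5.54e-06). Both genes thus stepped down from MeVa2.1.dOVA to MeVa2.1 and again to the MeVa2.2 lines.

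Il1rl1, which encodes the interleukin-33 receptor ST2, was the most abundant of the 12 named genes above. It was at 638, 1079.8 and 369 CPM in MeVa2.1.dOVA, 136, 110.4 and 179.6 in MeVa2.1, 90.1, 144 and 63.2 in MeVa2.2, and 133, 236 and 279 in MeVa2.2.dOVA. Every library of the line exceeded the highest other library, replicate 3 of MeVa2.2.dOVA, although replicates of the line differed among themselves by more than that gap. The log2 difference was 2.26 ± 0.31 (adjusted p = 0.0018). Sucnr1, the G protein-coupled receptor for succinate, was at 67.3, 63.9 and 54.9 CPM against 17.9 to 29.0 in MeVa2.1 and 3.50 to 17.6 in the others (log2 difference 2.02 ± 0.33, adjusted p = 0.00549).

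Other members above were the p38 delta kinase Mapk13, the endoplasmic reticulum autophagy receptor Retreg1, the NAD-synthesizing enzyme Nmnat2, the potassium channel Kcnq5, the lysyl oxidase Loxl4, and Naaladl2, Fam124a and Lonrf3. Mapk13 was at 7.46, 6.51 and 5.59 CPM against 2.36 to 3.55 in MeVa2.1 and at most 0.116 elsewhere. Retreg1 was at 58.5, 47.3 and 50.6 CPM against 10.1 to 28.6 in the 9 others. All 12 were called against the mean of the others, 11 against MeVa2.2.dOVA, 9 against MeVa2.2 and 2 (Pou3f1 and Il1rl1) against MeVa2.1. The 12 were picked by their gap in these same libraries, so the calls are not independent of that choice. With the replicate block, 5 were called against MeVa2.1. With the 9 other libraries as 1 group, 0 of the 12 were called, with adjusted p of 0.155 for Pou3f1, 0.398 for Thrb and 0.0565 for Il1rl1. Leaving out 1 library ended the call against the mean for 4 of them: for Nmnat2 without MeVa2.1.dOVA replicate 1, 2 or 3 (adjusted p = 0.0822, 0.0691 and 0.0614), for Kcnq5 without replicate 1 or 3 (0.0837 and 0.116), for Loxl4 without replicate 1 or 3 (0.0603 and 0.0643) and for Lonrf3 without replicate 1 or 2 (0.0582 and 0.117). Pou3f1, Thrb, Retreg1, Nmnat2, Kcnq5, Naaladl2 and Fam124a overlap other annotated genes, and how strand was set in counting is not given in the sources used here.

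**Figure D2:**
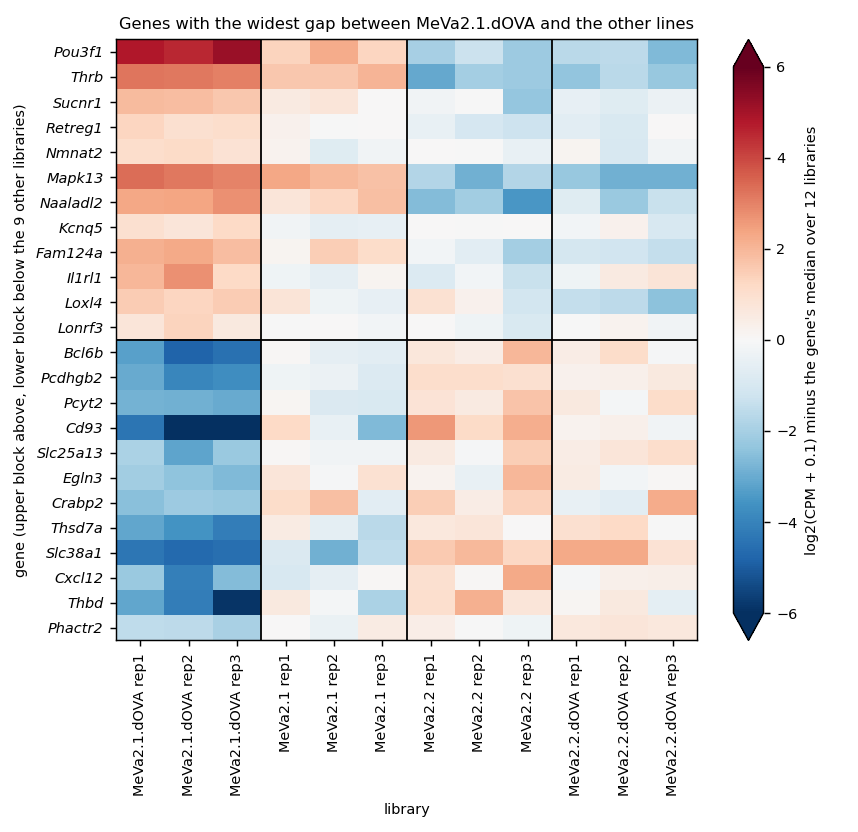
Level of the 12 named genes above (upper block) and 12 below (lower block) in each library, as log2(CPM + 0.1) minus the gene's median over the 12 libraries (red higher, blue lower, colours saturate at the ends of the bar). The 3 MeVa2.1.dOVA columns stand alone in both blocks, and MeVa2.1 is intermediate for Thrb, Mapk13, Naaladl2 and Slc38a1.

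The genes farthest below the other lines were lower by wider margins. Bcl6b, a transcriptional repressor related to BCL6, was at 1.53, 0.474 and 0.602 CPM in MeVa2.1.dOVA. It was at 10.02 to 16.4 in MeVa2.1, 21.6 to 62.6 in MeVa2.2, with 15.1 to 33.9 in MeVa2.2.dOVA, so all 9 other libraries lay well above. The log2 difference was -4.69 ± 0.55 (adjusted p = 0.000693). Cd93, a C-type lectin-like receptor best known from endothelial and myeloid cells, was at 5.63, 0.533 and 0.860 CPM against 18.8 to 270.4 in MeVa2.1, 261 to 716 in MeVa2.2, with 103 to 149 in MeVa2.2.dOVA. Its log2 difference was -6.48 ± 1.06 (adjusted p = 0.00556).

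Thbd, which encodes the anticoagulant receptor thrombomodulin, is the annotated neighbour of Cd93 on chromosome 2 (the pair spans chr2:148404466-148443563, both on the minus strand). Thbd was at 6.18, 2.90 and 0.802 CPM in MeVa2.1.dOVA and at 14.5 to 80.8, 89.3 to 238 and 36.0 to 81.7 in MeVa2.1, MeVa2.2 and MeVa2.2.dOVA. Both genes were lowest in MeVa2.1.dOVA and highest in MeVa2.2, and within MeVa2.1 both were lowest in replicate 3. The log2 difference for Thbd was -4.54 ± 0.76 (adjusted p = 0.00658). Cd93 is 1 of 14 endothelial markers listed, of which 4 could be tested and only Cd93 was called against the mean. The summed level of the 14 was 81.4 to 122 CPM in MeVa2.1.dOVA and 123 to 810 in the other lines, but Cd93 itself makes that difference. The other 13 summed to 80.5 to 117 CPM in MeVa2.1.dOVA, 99.5 to 118 in MeVa2.1, 94.7 to 134 in MeVa2.2 and 44.7 to 64.6 in the remaining line, and Tie1, Cldn5 and Robo4 had no count in any line. Most of that sum was Flt1, at 77.4 to 112 CPM in MeVa2.1.dOVA and 40.9 to 129 in the other lines. Tfpi, the tissue factor pathway inhibitor, chosen after its values were seen, was also below, at 18.7, 15.04 and 17.4 CPM against 34.1 to 64.0 (log2 difference -1.52 ± 0.17, adjusted p = 0.000448). That p-value is not independent of the choice.

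Among the remaining named genes below, Pcyt2, an enzyme of phosphatidylethanolamine synthesis, was at 1.77, 1.72 and 1.55 CPM against 6.94 to 14.6 in MeVa2.1 and 12.1 to 44.3 in the MeVa2.2 lines (log2 difference -3.41 ± 0.42, adjusted p = 0.000977). Slc38a1, a glutamine transporter, was at 0.917, 0.710 and 0.774 CPM against 2.62 to 11.1 in MeVa2.1 and 36.5 to 99.0 in the MeVa2.2 lines (-5.32 ± 0.55, adjusted p = 0.0003). Slc25a13, the mitochondrial aspartate-glutamate carrier citrin, was at 2.57, 1.01 and 2.03 CPM against 8.53 to 28.0. In each of these genes all 3 libraries of the line lay below every other. Egln3, the prolyl hydroxylase that marks hypoxia-inducible factors for removal, was at 4.22, 3.37 and 2.81 CPM against 13.2 to 73.9. Of the 26 tested hypoxia and glycolysis genes Egln3 was the only member, beside 3.06% of all genes. Against the mean 1 was called higher, the glucose transporter Slc2a3, which overlapped MeVa2.1, beside 2.1% of all genes.

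Crabp2, the cellular retinoic acid-binding protein, was at 1.16, 1.48 and 1.38 CPM against 4.502 to 33.2. Thsd7a was at 1.04, 0.710 and 0.459 CPM against 3.13 to 22, and Phactr2, a phosphatase and actin regulator, at 3.06, 3.02 and 2.29 CPM against 6.94 to 15.3. Thsd7a overlaps 3 annotated genes on the opposite strand, and the strand setting of the counting is not given. Pcdhgb2 was at 3.24, 1.72 and 1.98 CPM against 15.5 to 57.7, but it overlaps 30 annotated genes on chromosome 18, 21 of them protocadherin gamma genes and 4 on the opposite strand, so its count is uncertain. Its neighbours Pcdhgb1 and Pcdhga4 were also below. All 12 named genes below were called against the mean, against MeVa2.2 and against MeVa2.2.dOVA, and 9 against MeVa2.1, or 11 with the block. These calls are not independent of how the genes were picked, by their gap in the same libraries. With the 9 other libraries as 1 group, 5 of the 12 kept the call (Bcl6b, Pcdhgb2, Phactr2, Slc25a13 and Thsd7a), and Cd93 and Thbd each had an adjusted p of 0.0927. Without 1 library, Crabp2 lost its call in 5 cases, with an adjusted p of 0.139, 0.108 and 0.125 without MeVa2.1.dOVA replicates 1, 2 and 3, 0.0509 without MeVa2.1 replicate 1 and 0.0527 without MeVa2.2 replicate 1. Egln3 lost it without MeVa2.1.dOVA replicate 3 (0.0623).

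Cytokines and their receptors held members in both directions. Of 17 tested receptor genes, 3 lay below (Il1r1, Lifr, Osmr) and 1 above (Il1rl1). Of 20 tested chemokines and cytokines, 3 lay below (Cx3cl1, Cxcl12, Lif) and 1 above (Tslp). Over all tested genes, 3.06% were members. The lists' median log2 differences were -0.29 and -0.05, beside 0.01 over all genes. In the test against the mean, 4 receptors were called lower (Il11ra1 with the 3 members) and 2 higher (Il1rl1 and Ackr2). Of the ligands, 3 were called lower and 2 higher. Over all genes 1.57% were called lower and 2.1% higher. Ackr2 was just inside the threshold (adjusted p = 0.0498) and lost its call with RLE size factors (0.051) and in 10 of the 12 fits without 1 library. The 4 receptors called lower became 1 without any 1 of the MeVa2.1.dOVA libraries, 2 without MeVa2.1 replicate 1 or 3 or MeVa2.2 replicate 1, and 2 without the 2 libraries that stood apart. The 3 ligands called lower became 1 without MeVa2.1.dOVA replicate 1 and were 2 to 4 in the other such fits.

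In the interleukin-6 family, Osmr, the oncostatin M receptor, was at 0.306, 0.474 and 0.315 CPM in MeVa2.1.dOVA. It was at 6.17, 5.63 and 5.24 in MeVa2.1 and 0.918 to 3.54 in the MeVa2.2 lines, the largest step being from MeVa2.1 (log2 difference from the mean of the others -2.93 ± 0.47, adjusted p = 0.00486). Lifr, the leukaemia inhibitory factor receptor, lies next to Osmr on chromosome 15 (the pair spans chr15:6813577-7197489). Only 3 Lifr reads were counted over the 3 MeVa2.1.dOVA libraries, against 64 in MeVa2.1, 1766 in MeVa2.2, with 117 in MeVa2.2.dOVA. Scaled for depth, Lifr was 19.9-fold higher in MeVa2.1 (95% counting interval 6.51 to 99), 646-fold in MeVa2.2 (221 to 3140) and 36.4-fold in MeVa2.2.dOVA (12.2 to 179), with intervals that cover counting error only. The ligand Lif was at 3.61, 3.85 and 1.81 CPM against 5.49 to 75.0 in the 9 others (-2.42 ± 0.57, adjusted p = 0.0375). Il11ra1 was called lower (adjusted p = 0.0272) but overlapped MeVa2.2, and lost the call in 6 of the 12 fits without 1 library (0.0503 to 0.139). The call for Lifr ended without MeVa2.1.dOVA replicate 1, 2 or 3 (adjusted p = 0.0581, 0.0512 and 0.0796). That for Lif ended in 7 of the 12 fits without 1 library, namely without MeVa2.1.dOVA replicate 1, 2 or 3 (0.125, 0.0971 and 0.154), MeVa2.1 replicate 1 or 2 (0.0554 and 0.0552), or replicate 1 of either MeVa2.2 line (0.0575 in MeVa2.2 and 0.0561 in the other).

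In the interleukin-1 family the directions were opposite. Il1rl1 was above all others, as given earlier, while Il1r1, the receptor for interleukin-1 itself, was at 16.9, 8.70 and 19.0 CPM against 23.2 to 31.2 in MeVa2.1, 37.2 to 58.7 in MeVa2.2, with 31.3 to 105 in MeVa2.2.dOVA (log2 difference -1.54 ± 0.36, adjusted p = 0.0395). Il1r1 was not called when any of 9 libraries was left out, with adjusted p from 0.0552 without MeVa2.1 replicate 3 to 0.154 without MeVa2.1.dOVA replicate 2. The chemokine Cxcl12, which binds Cxcr4, was at 5.504, 1.42 and 4.21 CPM against 13.3 to 125 (-3.18 ± 0.55, adjusted p = 0.00733). Cx3cl1, the membrane-tethered chemokine fractalkine, was at 1.59, 1.18 and 2.09 CPM against 2.38 to 31.2 (-2.40 ± 0.42, adjusted p = 0.00782), and its call ended without MeVa2.1.dOVA replicate 1 (0.0535). For both chemokines MeVa2.2 was the highest line. Against MeVa2.1 singly, the adjusted p was 0.436 for Il1r1, 0.1185 for Cxcl12 and 0.0425 for Cx3cl1. Tslp was above at 3.55, 7.81 and 4.73 CPM against 0.494 to 3.43, with an adjusted p of 0.145.

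**Figure D3:**
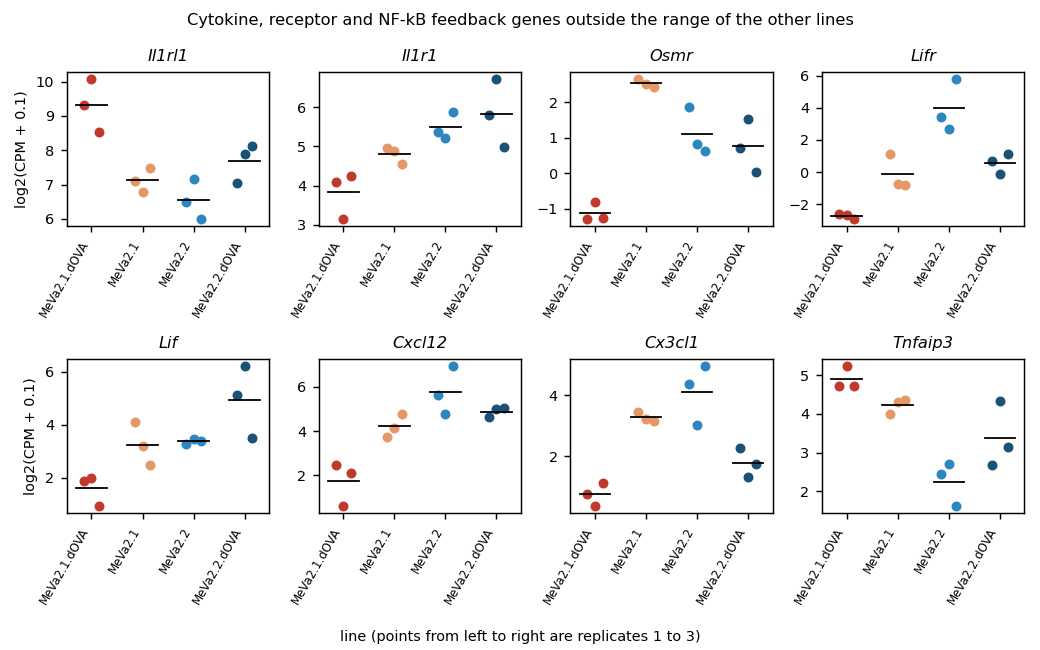
Level of 8 genes in each library, as log2(CPM + 0.1), by line, with the bar at the mean of the 3 log values. In each panel the 3 red MeVa2.1.dOVA points lie outside the range of the other 9, above for Il1rl1 and Tnfaip3 and below for the other 6.

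Among genes of death receptors and resistance to killing, 28 were tested and 2 lay above the others, beside 1.21% of all genes, 1 of them by a small difference that was not called. Tnfaip3, the NF-kB feedback inhibitor A20, was at 26.1, 37.8 and 26.0 CPM against 15.9 to 20.5 in MeVa2.1, 2.96 to 6.37 in MeVa2.2, with 6.28 to 19.9 in MeVa2.2.dOVA (log2 difference 1.56 ± 0.31, adjusted p = 0.0152). Against MeVa2.1 singly Tnfaip3 had an adjusted p of 0.577, and its call against the mean ended without MeVa2.1.dOVA replicate 2 (0.0777) or 3 (0.051). The other was the apoptosis effector Bak1, at 96.6 to 105 CPM against 82.2 to 94.3, with an adjusted p of 0.431. Serpinb9b, of the granzyme inhibitor family, was called higher (2.80 ± 0.50, adjusted p = 0.00961) but overlapped another line, and that call ended without MeVa2.1.dOVA replicate 1 (0.0682) or 3 (0.0617). None of the 28 was called lower than the mean of the others, though 1 was with the replicate block. Against MeVa2.2 singly 1 was called lower and 2 higher, beside 2.27% and 1.7% of all genes.

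The list of matrix proteases and inhibitors held the most members. Of 27 tested genes, 5 lay below all other lines (Ctsc, Ctsk, Mmp2, Plau and Sulf1) and 0 above, beside 1.85% and 1.21% of all genes. In the test 4 were called lower and 1 higher (Mmp13), beside 1.57% and 2.1% of all genes, and the list's median log2 difference was -0.20 against 0.01 over all genes. Ctsk, the collagen-degrading cathepsin K, was at 7.22, 3.85 and 3.24 CPM against 24.5 to 56.7 in MeVa2.1, 48.4 to 115 in MeVa2.2, with 13.1 to 25.5 in MeVa2.2.dOVA (-3.13 ± 0.42, adjusted p = 0.00173). Ctsc, which activates granule serine proteases, was at 6.12, 1.36 and 3.07 CPM against 9.65 to 40.3 (-2.65 ± 0.44, adjusted p = 0.00598). Both cathepsins were called against each of the 3 lines singly.

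Sulf1, an extracellular sulfatase that edits heparan sulfate, was at 0.183, 0 and 0.0573 CPM in MeVa2.1.dOVA against 0.906 to 8.57 in MeVa2.1, 18.3 to 55.2 in MeVa2.2, with 0.499 to 2.16 in MeVa2.2.dOVA (adjusted p = 0.00585). Mmp2, gelatinase A, was at 66.2, 32.3 and 84.7 CPM against 99.96 to 239.7 (-1.46 ± 0.35, adjusted p = 0.0404), and its call ended in 10 of the 12 fits without 1 library. Plau, the urokinase plasminogen activator, was at 12.4, 1.95 and 5.22 CPM against 18.4 to 383, with an adjusted p of 0.0607, or 0.0012 with the replicate block. Of 30 tested matrix genes 2 lay below, beside 1.85% of all genes. Col6a3, a collagen VI chain, was at 88.5, 16.4 and 34.6 CPM against 90.4 to 1168 and was called lower (adjusted p = 0.0281). Loxl1, which cross-links elastin, was at 2.202, 0.118 and 1.03 CPM against 2.52 to 22.3 and was also called lower (adjusted p = 0.0275). Against MeVa2.1 singly, the adjusted p was 0.137 for Col6a3 and 0.222 for Loxl1. Calls for both ended without MeVa2.1.dOVA replicate 2 (0.102 and 0.0559) or 3 (0.136 and 0.130) or MeVa2.2 replicate 1 (0.0531 and 0.0528), and that of Col6a3 also without MeVa2.1 replicate 1 (0.0511). The 12 fibroblast markers, summed, were at 82.8 to 166 CPM in MeVa2.1.dOVA, within the 45.5 to 315 of the others, a sum made up mostly of Pdgfra and Cd34. Of the 10 tested, Thy1 alone was called lower than the mean and Dpt alone lay below all others, beside 1.57% and 1.85% of all genes. The list's median log2 differences were -0.64 against the mean, -2.34 against MeVa2.1, -1.57 against MeVa2.2 and 0.45 against the remaining line, so by their median these markers stood lower in the first 3 comparisons. Their part in the matrix result was not tested.

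Adhesion and growth factor genes gave a few more members. Of 28 tested adhesion genes 4 lay below, Alcam, F11r, Jam3 and Itga8, and 0 above, beside 1.85% and 1.21% of all genes. Alcam, the ligand of CD6 on T cells, was at 90.2, 83.5 and 74.7 CPM against 120.0 to 261 (-1.06 ± 0.21, adjusted p = 0.0152). F11r, a junctional adhesion molecule, was called lower as well (adjusted p = 0.0318). Without 1 library, Alcam lost the call in 3 fits, those without a MeVa2.1.dOVA library (0.0576 to 0.0876), and F11r in 7 (0.0524 to 0.135). Jam3 and Itga8 had adjusted p of 0.0779 and 0.241, or 0.0404 and 0.0265 with the block. All 3 adhesion genes called lower, Alcam, F11r and the overlapping Cadm1, lost the call without the 2 libraries that stood apart. Mertk, a receptor tyrosine kinase for apoptotic cell uptake, was at 22.02, 14.4 and 20.1 CPM against 23.1 to 32.0 in MeVa2.1 and 53.5 to 104 in the MeVa2.2 lines (-1.61 ± 0.18, adjusted p = 0.000522). Tgfbr2, a receptor for TGF-beta, was at 56.8, 42.7 and 47.9 CPM against 75.7 to 125 (-0.97 ± 0.18, adjusted p = 0.0122), and the ligand Tgfb2 at 6.12, 5.74 and 6.56 CPM against 8.56 to 14.2 (-0.83 ± 0.20, adjusted p = 0.0396). Calls for Tgfbr2 ended without MeVa2.1.dOVA replicate 2 or 3 (0.0752 and 0.0788), and those for Tgfb2 in 10 of the 12 fits without 1 library and without the filter on low counts (0.138). The transcription factor Snai1 was at 2.32, 2.13 and 2.09 CPM against 2.96 to 9.29 (-1.54 ± 0.25, adjusted p = 0.00593). Against MeVa2.1 singly, none of these called genes reached the threshold. The adjusted p was 0.0611 for Alcam, 0.172 for F11r, 0.295 for Mertk, 0.144 for Tgfbr2, 0.285 for Tgfb2 and 0.280 for Snai1.

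**Figure D4:**
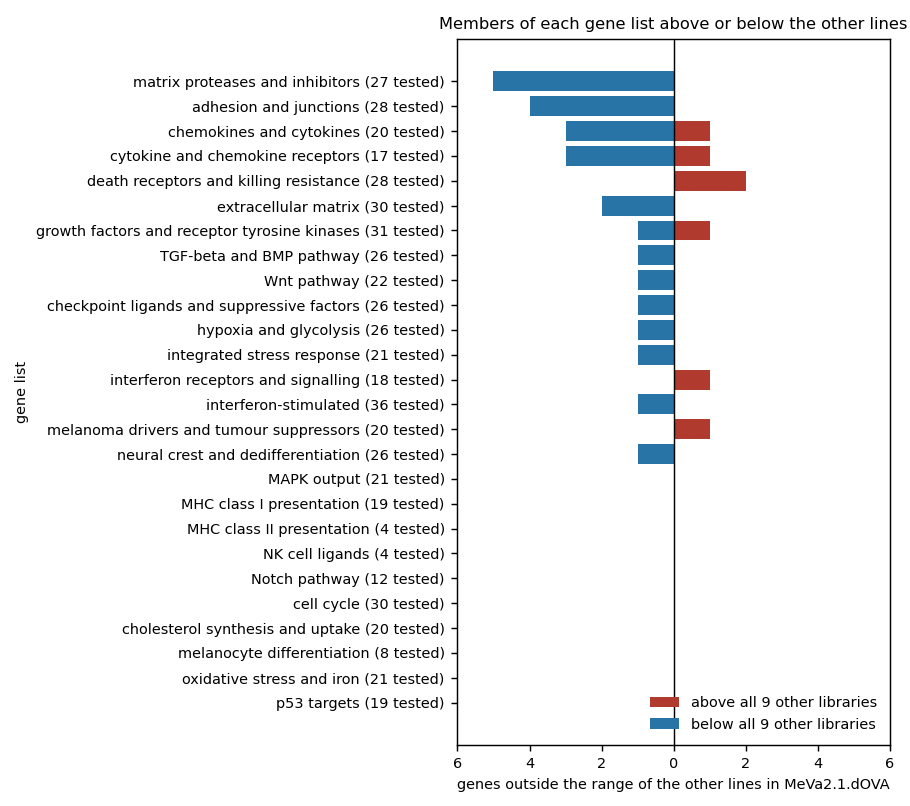
Number of genes in each gene list that lay below (blue, leftward) or above (red, rightward) all 9 other libraries in MeVa2.1.dOVA, with the number tested beside the name. Matrix proteases had 5 below and 0 above, and the MHC class I, cell cycle, MAPK, p53 and melanocyte lists had no member.

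Over all 26 function lists, 553 genes were tested, and 7 lay above and 25 below the other lines, beside 1.21% and 1.85% of all genes. Of these 553, 22 were called higher and 29 lower than the mean, beside 2.1% and 1.57% of all genes. The lists were chosen with earlier results of these data known, so these counts are not independent of that choice. The lists for MHC class II presentation, NK cell ligands, MAPK output, cell cycle, cholesterol synthesis, Notch and p53 targets had no member and no call against the mean. With the replicate block 2 p53 targets were called higher than the mean, and 1 gene each of the MAPK, cell cycle, cholesterol and Notch lists. Against MeVa2.2 singly, 1 MAPK gene was called lower, and 1 cell cycle and 1 Notch gene higher, beside 2.27% and 1.7% of all genes. Against MeVa2.2.dOVA, 3 MAPK and 3 Notch genes were called higher, and 1 each of the NK, cholesterol and p53 lists, beside 6.45% of all genes.

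Antigen presentation did not set the line apart from all the others. None of the 19 tested MHC class I genes lay outside the range of the other 9 libraries. Of the 19, 1 (H2-Q4) was called lower than the mean (adjusted p = 0.0299), beside 1.57% of all genes. That call ended without MeVa2.1.dOVA replicate 1, 2 or 3 (0.130, 0.0903 and 0.142). With the replicate block 5 were called lower. B2m, the shared light chain, was at 448, 490.1 and 388 CPM in MeVa2.1.dOVA, 344 to 579 in MeVa2.1, 377 to 574 in MeVa2.2, with 785 to 937 in MeVa2.2.dOVA. The class I heavy chain H2-K1 was at 19.7, 17.4 and 10.5 CPM, against 20.2 to 61.3, 11.4 to 28.9 and 68.0 to 91.0 in the same order (log2 difference -1.34 ± 0.37, adjusted p = 0.0752, or 0.0038 with the block). For both genes MeVa2.2.dOVA was the high line, and MeVa2.1.dOVA overlapped MeVa2.2. The median log2 differences of the list were -0.37, -0.28 and -1.33 against MeVa2.1, MeVa2.2 and MeVa2.2.dOVA. In the same order 0, 0 and 9 of its genes were called lower, beside 0.386%, 2.27% and 4.81% of all genes. H2 genes have near-identical relatives, so their counts are uncertain.

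All 36 listed interferon-stimulated genes were tested. Against the mean of the others 6 were called lower (Ifi44, Irf7, Irf9, Parp14, Rtp4 and Trim30a) and 0 higher, beside 1.57% and 2.1% of all genes. Of the 36, 1 lay below all 9 others, beside 1.85% of all genes. That gene, Irf7, an interferon regulatory factor, was at 0.489, 0.592 and 0.315 CPM in MeVa2.1.dOVA, 0.655 to 1.09 in MeVa2.1, 2.13 to 22.3 in MeVa2.2, with 24.7 to 143 in MeVa2.2.dOVA (-4.22 ± 0.89, adjusted p = 0.022). The gap to MeVa2.1 was narrow, and that pairwise difference had an adjusted p of 0.786. The call against the mean ended without MeVa2.1.dOVA replicate 1, 2 or 3 (0.105, 0.0794 and 0.121). Ifi44 overlapped MeVa2.1, with 0.143 to 0.533 CPM against 0.192 to 0.765. The list's median log2 differences were 0, -1.79 and -4.07 against MeVa2.1, MeVa2.2 and MeVa2.2.dOVA. In the same order 0, 5 and 31 of its genes were called lower, beside 0.386%, 2.27% and 4.81% of all genes. The count of 6 was 0 without MeVa2.1.dOVA replicate 1 or 3, 1 without its replicate 2, and 1 without the 2 libraries that stood apart. Leaving out replicate 1 or 3 of MeVa2.1 gave 3, and leaving out replicate 3 of MeVa2.2 gave 13. It was also 0 with the 9 other libraries as 1 group, 19 with DESeq2 and 17 without the filter on low counts. Of 18 tested interferon receptor and signalling genes 0 were called against the mean. Among them 1, Il10rb, lay above by a narrow gap (adjusted p = 0.175), beside 1.21% of all genes. Against MeVa2.2.dOVA singly 2 were called higher and 2 lower, beside 6.45% and 4.81% of all genes.

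Checkpoint ligands likewise did not single out the line. Of 26 tested, Tgfb2 was the only member, beside 3.06% of all genes. Cd274, which encodes PD-L1, was at 3.06, 5.92 and 3.30 CPM against 1.41 to 10.8 in the others (log2 difference -0.58 ± 0.48, adjusted p = 0.64). Cd276, which encodes B7-H3, was called higher (1.66 ± 0.35, adjusted p = 0.022), at 79.5, 60.7 and 102 CPM, but MeVa2.1 was higher still at 115 to 153, and the MeVa2.2 lines were at 3.98 to 20.1. Its call ended without MeVa2.1.dOVA replicate 1 (0.0857) or 3 (0.129).

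**Figure D5:**
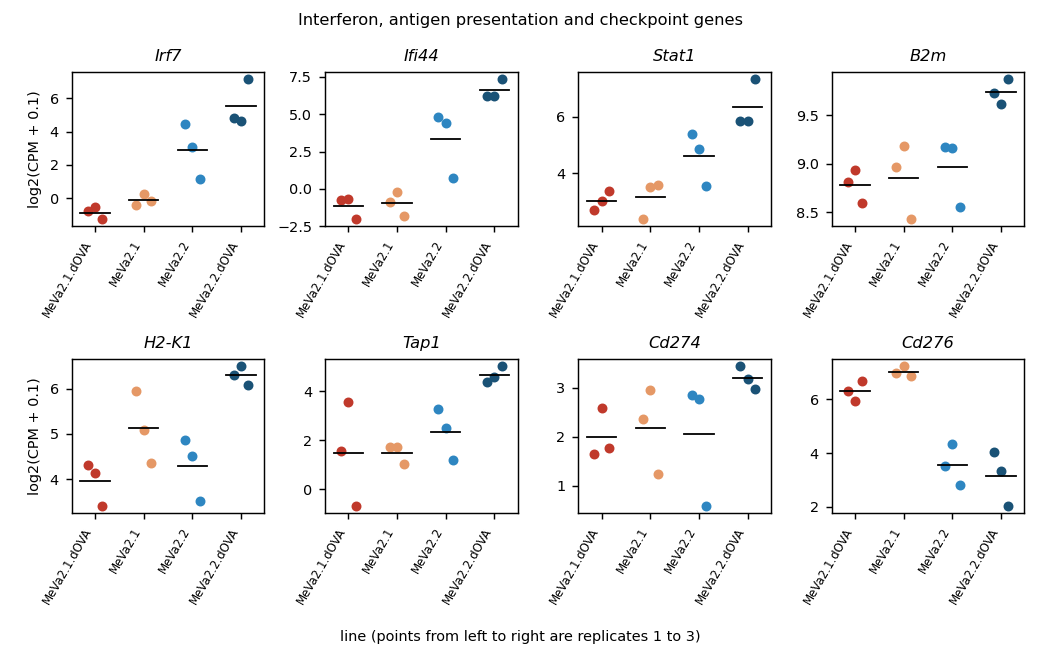
Level of 8 interferon, antigen presentation and checkpoint genes in each library, as log2(CPM + 0.1), by line, with the bar at the mean of the 3 log values. The red MeVa2.1.dOVA points overlap those of at least 1 other line in every panel except Irf7 and Cd276. For Irf7 they lie below all others, and for Cd276 between MeVa2.1 and the MeVa2.2 lines. MeVa2.2.dOVA is the high line in every panel except Cd276.

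Members lay on every autosome and on X. Protein-coding genes made up 94.7% of those above and 92.3% of those below, against 86.3% of all tested genes. The share of a chromosome's tested genes that lay above ranged from 0.593% on chromosome 6 to 3.05% on chromosome 18, beside 1.21% overall. The share below ranged from 0.542% on chromosome 13 to 3.22% on chromosome 1, beside 1.85% overall. Tested neighbours that were both members in the same direction were found at 17 places, among them Cd93 with Thbd, Osmr with Lifr, and the zinc finger factors Zic5 with Zic2.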

How the data were processed

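RNA was extracted with RNeasy kits and libraries were made with the TruSeq Stranded mRNA kit, per the labels' protocols. The authors deposited raw read counts per gene for each library; STAR 2.6.0c, HTSeq 0.10.0, DESeq2 1.30.1 and GRCm38 are named per the submitters' processing notes, and the strand setting of the counting is not given in the sources used here. Rows naming no gene held 35.8% to 40% of each file and were left out. Gene counts summed to 16181816 to 35627069 per library, so levels under about 0.1 CPM rest on few reads. In R 4.3.3, edgeR 4.0.16 (filterByExpr, TMM, quasi-likelihood test, Benjamini-Hochberg adjustment, threshold 0.05) was fitted to all 12 libraries, with line as the term. Every adjusted p comes from it unless named otherwise. limma 3.58.1 and DESeq2 1.42.0 were loaded, the latter for an alternative. The code was tested on simulated data.

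Members and gene lists were chosen with earlier results of these data known. Named genes are the 12 with the widest gap in each direction (log2 CPM, prior count 2) with a mean of at least 5 CPM on the higher side and no clone name, besides list members that were called or lay outside the others. For the sequences, genes on chromosome 18 were left out, and the condition that no annotated exon overlaps was added after the files were examined. Ratios with 0 counts use a floor of 3 counts over a line's 3 libraries; exact 95% intervals and floors cover counting error only. Same-numbered libraries deviated together from their line means (r = 0.105 to 0.64 over 9 pairs with MeVa2.1.dOVA), so the numbers were taken as pairs and fitted as a block in an alternative. Other alternatives were RLE scaling, CPM from total counts, no filter, a 1.5-fold gap, a 2-group fit, DESeq2 and leaving out libraries.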

Additional observations from a re-analysis of the deposited data

How the results depend on the processing

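Under the replicate block (the pairing by number), 1108 genes were called against the mean of the other lines, 364 against MeVa2.1, 1215 against MeVa2.2 and 3079 against MeVa2.2.dOVA, beside 513, 68, 555 and 1574 without it. The block ended no call among the 72 genes followed singly. DESeq2 called 1068, 394, 1090 and 2428, and against the mean 47% of its calls were higher, beside 57.1%. Without a filter on low counts the first 3 numbers were 836, 272 and 895. With the 9 other libraries as 1 group, 13 genes were called (1325 at an unadjusted p under 0.05), and 6 of the 72 followed genes kept their call. Leaving out 1 library gave 244 to 671 calls against the mean, 1 to 83 against MeVa2.1, 310 to 644 against MeVa2.2 and 796 to 2578 against MeVa2.2.dOVA, and 36 of the 72 genes lost the call in at least 1 such fit. Without the 2 libraries that stood apart, a choice made after seeing the data, the counts were 360 (69.4% higher), 2, 369 and 1717, and 21 of the 72 genes lost the call. None of the 72 changed direction in any of these fits. For the members among them this follows largely from the rule, since their MeVa2.1.dOVA libraries all lie on the same side of the others.

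Requiring a gap of 1.5-fold in CPM left 15 genes above and 65 below in MeVa2.1.dOVA (15 and 51 on the log2 scale with a prior count of 2), and 116, 46 and 291 in MeVa2.1, MeVa2.2 and MeVa2.2.dOVA. With the scaling of all 12 libraries kept, fewer libraries can only add separated genes, by construction. Leaving out 1 gave 173 to 394 above, 268 to 467 below, and 908 to 1922, 232 to 851 and 1152 to 3735 in the other lines. Without the 2 libraries apart there were 353 above, 456 below, and 945 and 2747 in the 2 MeVa2.2 lines. The cause of the changed counts of calls was not tested. Depth limits the genes with few reads, such as Lifr.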

Other observations

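The following genes were chosen after their values were seen and stand for no group. Sp8, a zinc finger factor of limb and forebrain patterning, was at 0.612, 0.710 and 8.20 CPM in MeVa2.1.dOVA, so replicate 3 carried most of its 308 reads. MeVa2.1 had 2 Sp8 reads, a ratio of 165 (95% counting interval 45.3 to 1370), and the line was at least 93.5-fold higher than MeVa2.2 and at least 110-fold higher than MeVa2.2.dOVA. Of the neighbouring factors, Zic2 was at 0.673, 1.78 and 1.92 CPM, against at most 0.165 CPM in any other library. Zic5 was at 0.979, 2.13 and 0.917 CPM, against at most 0.218 CPM elsewhere. Hoxa7 was at 1.53, 1.78 and 4.01 CPM against at most 0.277. Fgf10, a growth factor of epithelial budding, was at 2.75, 0.651 and 3.07 CPM against at most 0.216. In these 5 genes the 3 libraries of the line lay above the other 9, and the spread among them was wide. They passed the filter on low counts only through MeVa2.1.dOVA, so no p-value is given for them.

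In the opposite direction, Lgals3bp, a secreted galectin-binding glycoprotein, was at 3.36, 1.18 and 2.29 CPM against 6.78 to 9.17 in MeVa2.1 and 17.4 to 420.4 in the MeVa2.2 lines (log2 difference -4.07 ± 0.60, edgeR adjusted p = 0.00301). Emx2, a homeobox factor, also lay below, at 5.87, 5.15 and 7.71 CPM against 8.46 to 28.3 (-1.33 ± 0.25, adjusted p = 0.0117).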
